A study of Mus musculus with 9 samples.

Results

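The genes described here encode voltage-gated sodium, potassium and calcium channels, the wider potassium channel family and the pacemaker (HCN) channels of the mouse. They were chosen by symbol (Scn followed by a number and a or b, Kcn, Cacn, or Hcn followed by a number) and by abundance, with at least 10 counts in at least 3 of 9 RNA sequencing libraries. Of 24772 entries in the deposited gene table, 138 had such a symbol and 96 reached the minimum, all of them protein coding. The other 42 symbols stayed under it. At the edge of the rule, 6 members reached the minimum in exactly 3 libraries (among them Kcng2, Kcnh8, Kcnip2, Kcnn3 and Kcns2), and 3 symbols reached it in 2 libraries (Kcnk13, Kcnk4 and Kcnmb3). Kcns2 was the 1 member that reached it through Ctrl libraries alone.

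Voltage-gated sodium channels carry the upstroke of the action potential, potassium channels repolarise the membrane and set its resting level, and calcium channels couple depolarisation to transmitter release and gene regulation. In neurons with long axons, such as the retinal ganglion cells whose axons form the optic nerve, sodium and Kv7 channels are concentrated at the axon initial segment and Kv1 channels beside it and along the axon. Photoreceptors, the light-sensing cells of the same tissue, signal by graded potentials and use another set, with channels that hold the silent Kv subunit Kcnv2, pacemaker channels and an L-type calcium channel of Cacna1f, Cacna2d4 and Cacnb2 at the ribbon synapse.

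The libraries came from cells sorted by flow cytometry and labelled as primary retinal ganglion cells, with 3 libraries in each of 3 groups. CKO cells were taken at day 3 after optic nerve crush from retinas in which the zinc transporter ZnT3 (gene Slc30a3) was conditionally deleted in amacrine cells (inhibitory interneurons presynaptic to ganglion cells). ONC cells were taken at the same day after crush from wild-type retinas, and Ctrl cells from intact wild-type retinas. No intact knockout group was sampled, and the Cre driver, strain, age and any pooling of animals are not given in the labels. Whether a group's libraries stem from separate animals is not stated, and p-values therefore cover only the spread among these libraries, which could be technical. The series asked how crush changed the sorted cells and what loss of amacrine ZnT3 changed after it.

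Total counts ranged from 14166996 to 25571715 per library, and the 96 channel genes held 0.258% to 0.376% of them. The ONC columns are numbered 3, 5 and 6 in the table and 1 to 3 in the labels, so they are named here by column. ONC columns 3 and 6 differed from each other by 3.23 times the counting variance (median over genes), against 11.4 to 15 times for pairs of libraries within CKO and within Ctrl. ONC column 5 differed from them by 46.8 and 42.9 times, and from the CKO libraries by 14.6 to 17.2 times. Whether columns 3 and 6 share a source, or column 5 holds a sample of another group, cannot be settled from the files. If columns 3 and 6 share one, ONC has fewer than 3 independent libraries and its p-values are too small. Results on ONC are therefore also given for column 5 alone for some genes, with its spread assumed to be that of the other groups. A gene without this value did not necessarily keep its call there, and the members that did are named with the counts of calls. Slc30a3 had 1, 4 and 2 counts in CKO libraries, 0, 1 and 0 counts in ONC libraries, and 2, 10 and 16 counts in Ctrl libraries, too few to check the knockout, which was made in another cell type than the one sorted.

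Markers of the labelled cell type were scarce. In 15 ganglion cell markers the summed level was 119.9 to 153 CPM (counts scaled to library size) in CKO, 116 to 175 CPM in ONC and 153 to 258 CPM in Ctrl libraries, while 15 rod markers summed to 102200 to 105500 CPM in CKO, 95830 to 104700 CPM in ONC and 88320 to 90690 CPM in Ctrl. The ganglion cell transcription factor gene Pou4f2 was at 0 counts in CKO replicates 1 and 3, in ONC columns 3 and 6 and in Ctrl replicate 3. In bulk samples such as these, fewer cells of a type and less RNA per cell cannot be told apart. Amacrine cell markers moved with the channel genes below: their sum was 271 to 301 CPM in CKO, 300.1 to 332 CPM in ONC and 607 to 692 CPM in Ctrl, with 7 of 14 tested markers called lower in ONC and 8 of 14 in CKO, each against Ctrl. The marker sum of Müller glia was 1350 to 1461 CPM in CKO, 1154 to 1682 CPM in ONC and 824 to 849 CPM in Ctrl. Their part in the results below was not tested.

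In both crushed groups more channel genes fell than rose, each against Ctrl. The test was edgeR's quasi-likelihood test over 15841 genes, which held all 96 members, and a call required an adjusted p (Benjamini-Hochberg) under 0.05. In ONC against Ctrl, 29 of 96 members (30.2%) were called lower, against 12.8% of all genes tested, and 6 (6.25%) were called higher, against 13%. In CKO against Ctrl, 18 members (18.8%) were called lower, against 4.58% of all genes, and 3 (3.12%) higher, against 4.32%. The median log2 fold change of the members was -0.72 in ONC and -0.67 in CKO, against -0.04 and -0.01 for all genes. Both comparisons use the same Ctrl libraries, and CKO differs from Ctrl in crush and genotype together. The 2 contrasts called 14 members lower in both, 15 in ONC alone and 4 in CKO alone, and 1, Kcnn1, higher in both. Without Kcns2, whose place among the members came from Ctrl libraries alone, 28 members were called lower in ONC, 17 in CKO and 13 in both.

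Counting libraries in place of adjusted p-values gave a similar picture. All ONC libraries lay below all Ctrl libraries for 40 members (41.7%), against 21.2% of all genes, and above them for 7 (7.29%), against 18.3%. All CKO libraries lay below all Ctrl libraries for 39 members (40.6%), against 18.5%, and above them for 5 (5.21%), against 17.2%. The calls in ONC depended on its libraries: with ONC column 5 alone, 9 members (9.38%) were called lower against 2.43% of genes, with columns 3 and 6 summed as 1 library 10 (10.4%) against 4.37%, and without column 5 36 (37.5%) against 23.3%. Of the 35 members called in ONC in either direction, column 5 alone kept the direction of all 35 but called 6 (Cacna2d1, Kcna4, Kcnc2, Kcnip1, Kcnk9 and Kcnq3), and the other 29 had adjusted p-values of 0.0593 to 0.888. After correction for GC content and gene length, 29 members were called lower in ONC, against 9.52% of genes, and 17 in CKO, against 4.62%. Calls in either direction, 35 in ONC against Ctrl, were 11, 48 and 15 without ONC columns 3, 5 and 6 and 17, 18 and 21 without Ctrl replicates 1, 2 and 3. In CKO against Ctrl, 21 calls became 6, 8 and 10 without CKO replicates 1, 2 and 3 and 10, 11 and 9 without Ctrl replicates 1, 2 and 3.

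Across 18 other analyses of ONC against Ctrl (other scalings, filters, tools and libraries left out) 5 members were called lower in every one, namely Kcnip1, Cacna2d1, Kcna4, Kcnc2 and Kcnq3. In CKO against Ctrl, 5 members held in 19 of 19 other analyses, namely Kcnip1, Kcna6, Kcnip3, Kcnd3 and Cacna1b. The other called members held in 4 analyses (Cacna2d2 and Kcnd1) to 17 in ONC, and in 7 (Cacna2d1) to 17 in CKO.

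**Figure D1:**
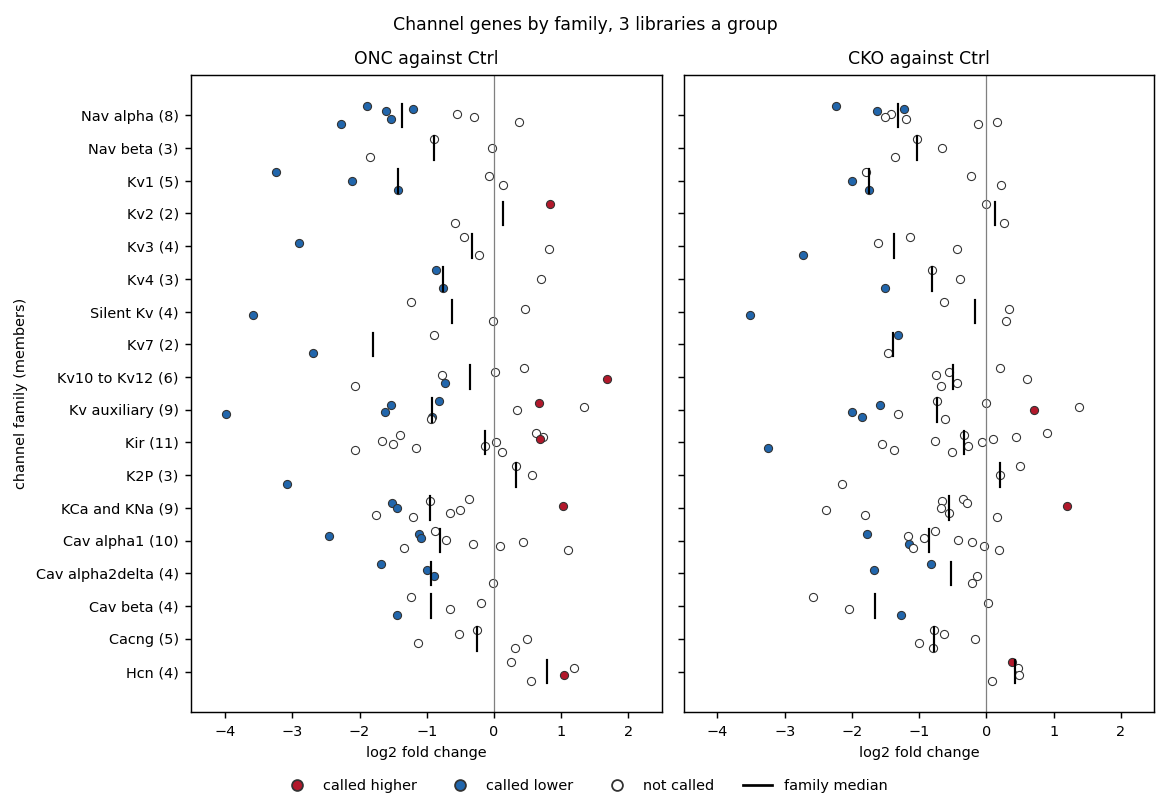
Log2 fold changes of the 96 channel genes by family, ONC against Ctrl on the left and CKO against Ctrl on the right, with 3 libraries a group. Each circle is a gene, filled where it was called, and the black bar is the family median. Most filled circles lie left of 0, with exceptions that include Kcnj14, Kcnh6, Kcnab2, Kcne2, Kcnn1 and Hcn3.

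The promoters of the members called lower in both contrasts with the lowest adjusted p in ONC are shown as examples. These genes were chosen for being lower in both, so their shared fall is no result about their promoters. The windows are RefSeq sequences on GRCm38.p6, from 250 bases before to 50 bases after the start, read on the gene's strand, and capitals mark GC boxes (GGGCGG on either strand, overlapping matches included).

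Kcnip1 (chr11:33993144-33993443, minus strand): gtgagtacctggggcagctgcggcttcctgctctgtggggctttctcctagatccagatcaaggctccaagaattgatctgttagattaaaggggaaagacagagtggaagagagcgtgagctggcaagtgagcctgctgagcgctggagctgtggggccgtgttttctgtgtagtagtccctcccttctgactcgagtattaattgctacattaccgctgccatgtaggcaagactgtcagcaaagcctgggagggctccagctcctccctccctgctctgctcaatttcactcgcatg

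Cacna2d1 (chr5:15934441-15934740, plus strand): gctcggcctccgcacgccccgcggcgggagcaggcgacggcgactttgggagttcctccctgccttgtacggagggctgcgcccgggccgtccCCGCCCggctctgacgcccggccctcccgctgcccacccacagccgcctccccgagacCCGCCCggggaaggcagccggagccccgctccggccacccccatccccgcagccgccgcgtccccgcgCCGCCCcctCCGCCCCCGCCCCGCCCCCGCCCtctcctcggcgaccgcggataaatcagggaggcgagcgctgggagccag

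Kcna6 (chr6:126740625-126740924, minus strand): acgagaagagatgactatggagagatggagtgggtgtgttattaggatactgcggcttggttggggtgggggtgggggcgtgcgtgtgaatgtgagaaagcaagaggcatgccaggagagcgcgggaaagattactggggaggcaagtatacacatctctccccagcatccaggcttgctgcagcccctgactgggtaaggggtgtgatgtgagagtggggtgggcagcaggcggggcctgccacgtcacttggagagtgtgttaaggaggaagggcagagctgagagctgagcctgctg

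The Cacna2d1 window was 80% G and C with 7 GC boxes, while the Kcnip1 and Kcna6 windows were 54.3% and 58.3% with none. Cacnb4, next in order and not shown, had a window of 78.3% with 6. Kcnip1 and Cacnb4 had 3 windows each, and only that nearest to the annotated gene start is described here. A window was given for 67 of 96 members, 96 windows in all. The GC box was in 49% of them, in 50% of the 38 windows of members called lower in either contrast, in 48.3% of the 58 windows of the others, and in 35.7% of all 32851 promoters in the table. The TATAAA motif was in 6.25% of the channel gene windows and 13.6% of all promoters, and TGACGTCA in 0 of them and 1.79% of all promoters. Both strands were searched for these too.

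Among sodium channel pore subunits, the genes of a cluster on chromosome 2 fell in ONC. The members were 8 alpha subunit genes. Values of each gene below run in the order of CKO replicates 1, 2 and 3, ONC columns 3, 5 and 6, and Ctrl replicates 1, 2 and 3, as CPM on edgeR's TMM scale, and log2 fold changes carry their SE. On GRCm38, Scn3a (chr2:65457118-65567627), Scn2a (chr2:65620771-65767447), Scn1a (chr2:66270778-66440840), Scn9a (chr2:66480080-66634962) and Scn7a (chr2:66673425-66784914) form this cluster. All 5 were called lower in ONC, though none with column 5 alone, and Scn1a, Scn2a and Scn3a also in CKO. Scn8a on chromosome 15 and Scn4a on chromosome 11 were called in neither contrast.

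Scn1a, the sodium channel gene best known from fast-spiking neurons, had 5.18, 7.59 and 1.56 CPM in CKO libraries, 4.34, 9.92 and 4.21 CPM in ONC libraries, and 18, 21.1 and 28.7 CPM in Ctrl libraries. Every crushed library lay below every Ctrl library, and CKO replicate 3 was the lowest. The log2 fold change was -1.88 ± 0.49 (adjusted p = 0.0179) in ONC and -2.24 ± 0.5 (adjusted p = 0.0186) in CKO, and with column 5 alone -1.16 (adjusted p = 0.263). Scn2a, whose channel is found in unmyelinated axons and young initial segments, had 7.7, 9.81 and 5.89 CPM in CKO libraries, 8.81, 7.7 and 7.25 CPM in ONC libraries, and 15.4, 17.9 and 21.4 CPM in Ctrl libraries. It changed by -1.2 ± 0.24 (adjusted p = 0.00642) in ONC and -1.22 ± 0.24 (adjusted p = 0.0113) in CKO on the log2 scale, with no overlap between crushed and Ctrl libraries. Scn3a, best known from the developing brain, had 5.0, 5.24 and 2.36 CPM in CKO libraries, 3.24, 6.42 and 3.17 CPM in ONC libraries, and 17.1, 12.4 and 9.57 CPM in Ctrl libraries, and again the groups did not overlap. On the log2 scale it changed by -1.61 ± 0.39 (adjusted p = 0.0136) in ONC and -1.63 ± 0.39 (adjusted p = 0.0259) in CKO. With column 5 alone, neither Scn2a at -1.22 (adjusted p = 0.0663) nor Scn3a at -1.0 (adjusted p = 0.255) passed the test.

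Scn9a, a gene best known from pain-sensing neurons, had 3.12, 1.6 and 1.23 CPM in CKO libraries, 0.833, 0.148 and 0.334 CPM in ONC libraries, and 1.48, 1.75 and 3.2 CPM in Ctrl libraries. It was called lower in ONC at -2.27 ± 0.7 (adjusted p = 0.0344), with -3.78 (adjusted p = 0.0593) for column 5 alone. Scn7a, a divergent family member linked to sodium sensing, had 2.29, 3.68 and 1.13 CPM in CKO libraries, 2.46, 1.14 and 2.04 CPM in ONC libraries, and 4.53, 6.16 and 5.73 CPM in Ctrl libraries. It was called lower in ONC at -1.54 ± 0.47 (adjusted p = 0.0331), with -2.24 (adjusted p = 0.0834) for column 5 alone. Levels of both genes were low, and each call held in 9 of 18 other analyses.

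Scn8a, the main sodium channel gene of mature initial segments and nodes of Ranvier, had 39.9, 44.1 and 42.5 CPM in CKO libraries, 57.1, 33.9 and 55.6 CPM in ONC libraries, and 38.9, 32.5 and 41.8 CPM in Ctrl libraries. ONC columns 3 and 6 were above every Ctrl library and column 5 was within the Ctrl range. Its log2 fold change was 0.37 ± 0.2 (adjusted p = 0.178) in ONC and 0.16 ± 0.2 (adjusted p = 0.689) in CKO. Its share of the summed per-kilobase level of Scn1a, Scn2a, Scn3a and Scn8a was higher in every crushed library than in any Ctrl library: 63.3%, 59.9% and 77.3% in CKO libraries, 73.0%, 51.7% and 74.6% in ONC libraries, and 37.0%, 32.4% and 34.6% in Ctrl libraries. The mean share was 66.8% ± 9.2 in CKO, 66.4% ± 12.8 in ONC and 34.7% ± 2.3 in Ctrl (SD, n = 3 each). An exact permutation test of 3 against 3 libraries cannot give a two-sided p below 0.1, so none is given.

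**Figure D2:**
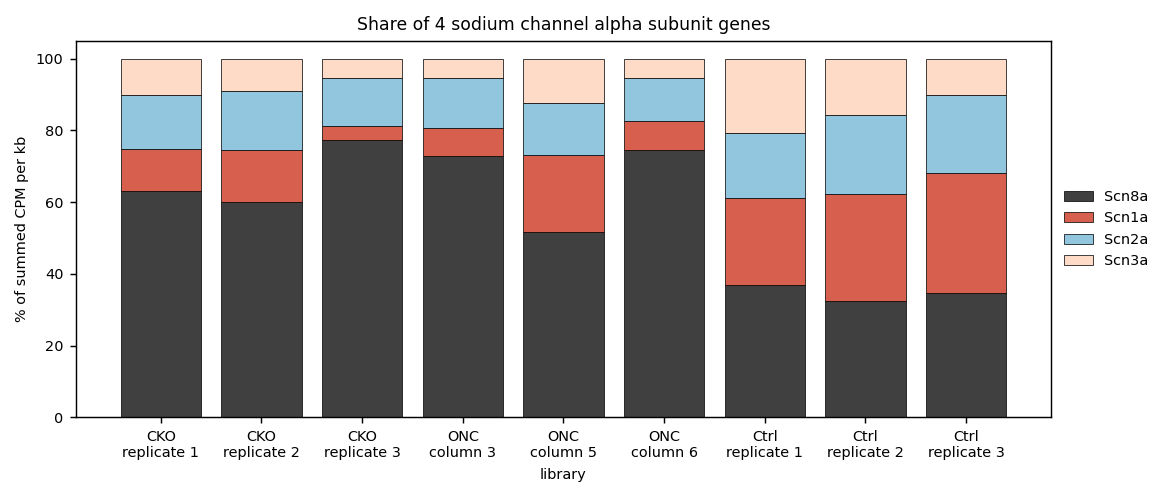
Share of Scn8a, Scn1a, Scn2a and Scn3a in their summed CPM per kilobase of exon, in percent, for each of the 9 libraries. Scn8a makes up 51.7% to 77.3% in the crushed libraries and 32.4% to 37.0% in the Ctrl libraries.

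Sodium channel beta subunits, which anchor and tune the pore, gave 3 members and no call in either contrast. Scn2b, the beta subunit gene with the highest level per kilobase, had 2.38, 5.32 and 2.97 CPM in CKO libraries, 4.91, 6.32 and 5.25 CPM in ONC libraries, and 5.17, 5.25 and 6.41 CPM in Ctrl libraries, with overlapping groups. Scn4b, the subunit of resurgent current, stayed under the minimum with 1 to 4 counts in every library.

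Delayed rectifiers of spiking neurons fell in part. Of 5 Kv1 genes, 3 were called lower in ONC and 2 in CKO, against 12.8% and 4.58% of all genes. Kcna6, whose channel joins others of the family in axons, had 3.67, 4.39 and 4.1 CPM in CKO libraries, 4.82, 5.72 and 4.59 CPM in ONC libraries, and 15.4, 13.9 and 11.3 CPM in Ctrl libraries. All crushed libraries were at or under 5.72 CPM and all Ctrl libraries at or above 11.3 CPM, for a log2 fold change of -1.43 ± 0.24 (adjusted p = 0.0033) in ONC, -1.22 (adjusted p = 0.0731) with column 5 alone, and -1.74 ± 0.25 (adjusted p = 0.003) in CKO. Its exons share 39.6% of their bases with a gene on the opposite strand, Gm26673, and reads of such pairs could not be told apart without strand. Kcna4, a fast inactivating family member, had 1.88, 1.29 and 1.89 CPM in CKO libraries, 2.19, 0.789 and 1.67 CPM in ONC libraries, and 7.57, 7.0 and 5.69 CPM in Ctrl libraries. The log2 fold change was -2.12 ± 0.42 (adjusted p = 0.00607) in ONC, -3.06 (adjusted p = 0.012) with column 5 alone, and -2.0 ± 0.42 (adjusted p = 0.014) in CKO.

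Kcna1, the low-threshold channel gene of axons mutated in human episodic ataxia, had 1.56, 2.04 and 0.943 CPM in CKO libraries, 0.219, 1.28 and 0.167 CPM in ONC libraries, and 6.09, 6.37 and 3.28 CPM in Ctrl libraries. It was called in ONC at -3.25 ± 0.72 (adjusted p = 0.0092), where column 5 stood nearer to the CKO libraries and alone gave -2.0 (adjusted p = 0.114), and not in CKO at -1.78 ± 0.67 (adjusted p = 0.126). Its partner Kcna2 had 11.6, 12 and 10.1 CPM in CKO libraries, 9.86, 16 and 11.5 CPM in ONC libraries, and 11.4, 9.73 and 18.1 CPM in Ctrl libraries, with overlapping groups and a log2 fold change of -0.08 ± 0.27 (adjusted p = 0.862) in ONC. Kcna5, the family's highest level per kilobase at 3.29 CPM per kb, was not called either.

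Kv3 channels let neurons fire fast. Kcnc2 had 5.04, 5.5 and 2.17 CPM in CKO libraries, 2.06, 0.296 and 2.75 CPM in ONC libraries, and 15.3, 11.8 and 11.7 CPM in Ctrl libraries, with ONC column 5 the lowest of all 9 libraries. Kcnc2 was called lower in ONC at -2.91 ± 0.59 (adjusted p = 0.00656), and with column 5 alone at -5.39 (adjusted p = 0.00105), and was not called in CKO at -1.61 ± 0.56 (adjusted p = 0.0997) although no CKO library reached the Ctrl range. Kcnc1 had 6.28, 9.36 and 7.74 CPM in CKO libraries, 15.7, 6.32 and 15.8 CPM in ONC libraries, and 15.6, 15.3 and 20.3 CPM in Ctrl libraries: the CKO libraries lay below Ctrl, whereas ONC columns 3 and 6 lay among the Ctrl values and column 5 at the CKO level. Kcnc1 was called in neither contrast, at -0.44 ± 0.32 (adjusted p = 0.331) in ONC and -1.13 ± 0.33 (adjusted p = 0.0526) in CKO. The ONC value was -1.41 with column 5 alone, so it depended on the libraries kept. Kcnc4 was called lower in CKO at -2.73 ± 0.72 (adjusted p = 0.0386), with 0.275, 0.266 and 0.236 CPM in CKO libraries and 0.693, 3.22 and 1.38 CPM in Ctrl libraries. The CKO values were only 6, 6 and 5 counts. ONC libraries lay within the Ctrl range for Kcnc4, at 1.45, 0.987 and 2.04 CPM, and it was not called there.

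Kv7 channels carry the M current that holds neurons below threshold. Kcnq3 had 1.74, 2.17 and 0.849 CPM in CKO libraries, 0.658, 0.345 and 1.0 CPM in ONC libraries, and 3.05, 5.81 and 4.35 CPM in Ctrl libraries. It was called lower in ONC at -2.7 ± 0.55 (adjusted p = 0.00688) and not in CKO at -1.46 ± 0.52 (adjusted p = 0.111). Every crushed library lay below every Ctrl library, and a call in 1 contrast and not in the other is no test of a difference between ONC and CKO: CKO against ONC gave 1.24 ± 0.54 (adjusted p = 0.169).

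The A-type current is made by Kv4 pores with KChIP partners, and some genes of both kinds fell. Kcnd3, a Kv4 pore, had 4.54, 5.81 and 5.09 CPM in CKO libraries, 8.51, 9.38 and 8.09 CPM in ONC libraries, and 16, 16.9 and 11.2 CPM in Ctrl libraries, in 3 groups that did not overlap. The log2 fold change was -0.76 ± 0.24 (adjusted p = 0.0349) in ONC, called in 7 of 18 other analyses, and -1.51 ± 0.24 (adjusted p = 0.00446) in CKO. Kcnd1 was called lower in ONC alone at -0.86 ± 0.29 (adjusted p = 0.0449). Kcnd2 was called in neither contrast. It had 4.12, 5.18 and 3.96 CPM in ONC libraries and 3.23, 2.17 and 2.73 CPM in Ctrl libraries. Every ONC library thus lay above every Ctrl library, at 0.7 ± 0.41 (adjusted p = 0.225).

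Kcnip1, which encodes a KChIP that binds these pores and calcium, had the lowest adjusted p of all members in both contrasts. It had 5.5, 6.03 and 5.28 CPM in CKO libraries, 8.2, 7.16 and 6.63 CPM in ONC libraries, and 24.8, 17.4 and 25.1 CPM in Ctrl libraries, or means of 5.61 ± 0.387 CPM in CKO, 7.33 ± 0.799 CPM in ONC, and 22.4 ± 4.34 CPM in Ctrl (SD, n = 3 each). The crushed libraries lay between 5.28 and 8.20 CPM and the Ctrl libraries between 17.4 and 25.1 CPM. On the log2 scale this was -1.62 ± 0.22 (adjusted p = 0.00142) in ONC, -1.62 (adjusted p = 0.0133) with column 5 alone, and -2.0 ± 0.22 (adjusted p = 0.000706) in CKO. Kcnip3, another KChIP gene, had 2.15, 3.06 and 2.17 CPM in CKO libraries, 4.74, 4.84 and 4.46 CPM in ONC libraries, and 7.62, 10.2 and 8.9 CPM in Ctrl libraries, again in 3 groups that did not overlap, with -0.92 ± 0.28 (adjusted p = 0.0301) in ONC and -1.85 ± 0.28 (adjusted p = 0.00401) in CKO. Kcnip4, at 15, 13.1 and 12.2 CPM in CKO libraries, 6.4, 18.9 and 7.09 CPM in ONC libraries, and 19.1, 13.8 and 29 CPM in Ctrl libraries, was high in ONC column 5 and low in columns 3 and 6, and was not called.

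Kv beta subunits, which bind Kv1 pores from the cytoplasm, split. Kcnab1 was called lower in ONC at -0.81 ± 0.23 (adjusted p = 0.0226) and Kcnab3 in both contrasts, at -1.52 ± 0.41 (adjusted p = 0.0203) in ONC, -0.98 (adjusted p = 0.327) with column 5 alone, and -1.59 ± 0.41 (adjusted p = 0.0348) in CKO. Kcnab2 was called higher in ONC at 0.68 ± 0.23 (adjusted p = 0.0473), with 45.7, 24.6 and 43.6 CPM in ONC libraries and 25.5, 23.4 and 22.4 CPM in Ctrl libraries. The rise was seen in columns 3 and 6, and column 5 lay within the Ctrl range, at 0.07 (adjusted p = 0.888) alone.

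**Figure D3:**
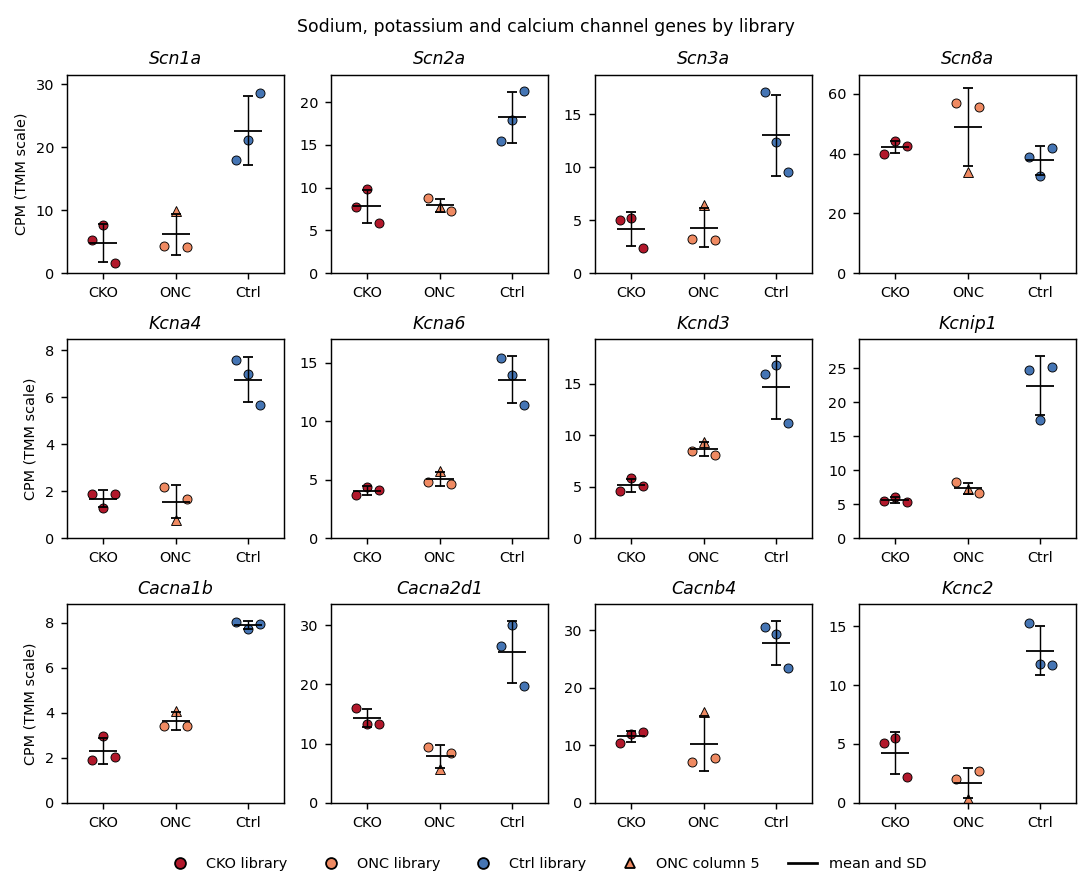
CPM on the TMM scale of 12 channel genes in each library, with CKO, ONC and Ctrl from left to right. Points are libraries, the triangle is ONC column 5, and bars give the mean and SD of 3 libraries. Except for Scn8a, every crushed library lies below every Ctrl library.

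The most abundant channel genes included the photoreceptor set named above, and none of the 8 highest was called lower in either contrast. The 8 with the highest mean CPM, among them Kcnv2, Kcnj14, Cacna2d4, Cacnb2, Kcne2 and Cacna1f, made up 70.4% to 83.4% of the members' CPM in each library. Means over 9 libraries were 135 CPM per kb for Kcnj14, 72.6 for Kcnv2 and 54.4 for Kcne2, against 2.72 for Scn8a. Of all members, 6 averaged 100 CPM or more, 25 averaged 10 or more and 16 averaged under 1.

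The silent subunit gene Kcnv2, whose product forms channels only together with other Kv pores, had 441, 402 and 424 CPM in CKO libraries, 312, 398 and 320.4 CPM in ONC libraries, and 363, 357 and 319 CPM in Ctrl libraries, and was called in neither contrast, at -0.01 ± 0.12 (adjusted p = 0.955) in ONC and 0.29 ± 0.12 (adjusted p = 0.187) in CKO.

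ONC columns 3 and 6 were the highest libraries for some genes. Kcnj14, an inward rectifier with the highest level per kilobase, had 312, 314 and 342 CPM in CKO libraries, 562, 339 and 539 CPM in ONC libraries, and 278, 320.3 and 302 CPM in Ctrl libraries, for 0.68 ± 0.17 (adjusted p = 0.0155) in ONC and 0.2 (adjusted p = 0.309) with column 5 alone. Kcnh6, an ERG-type potassium channel gene, had 5.5, 8.65 and 8.16 CPM in CKO libraries, 22.8, 5.87 and 18.5 CPM in ONC libraries, and 5.59, 4.62 and 4.47 CPM in Ctrl libraries, for 1.68 ± 0.42 (adjusted p = 0.0142) in ONC and 0.29 (adjusted p = 0.721) with column 5 alone. Its relative Kcnh7 was called lower in ONC at -0.73 ± 0.18 (adjusted p = 0.013), with 14.5, 18.8 and 14.1 CPM in ONC libraries and 23.4, 28.1 and 26.9 CPM in Ctrl libraries, and column 5 alone gave -0.45 (adjusted p = 0.281).

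Cacna1f, the pore gene of the ribbon-synapse calcium channel, had 79.2, 76.2 and 71.5 CPM in CKO libraries, 144, 72.9 and 136 CPM in ONC libraries, and 96.3, 85.3 and 80.3 CPM in Ctrl libraries. Its alpha2delta partner Cacna2d4 had 186, 168 and 168 CPM in CKO libraries, 236, 139 and 221 CPM in ONC libraries, and 206, 217 and 181 CPM in Ctrl libraries. Both were high in ONC columns 3 and 6 and neither was called in either contrast. Their ONC values depended on the libraries kept. With column 5 alone the log2 fold change against Ctrl was -0.23 for Cacna1f and -0.51 for Cacna2d4. Without column 5 the same test gave 0.73 (adjusted p = 5.84e-05) for Cacna1f and 0.24 (adjusted p = 0.0549) for Cacna2d4. The beta subunit gene of this channel, Cacnb2, had 136, 132 and 136 CPM in CKO libraries, 114, 119 and 117 CPM in ONC libraries, and 133, 134 and 132 CPM in Ctrl libraries, with ONC below Ctrl in every library by a log2 fold change of -0.19 ± 0.11 (adjusted p = 0.21), which did not pass the test.

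Kcne2, which encodes a small auxiliary subunit of several potassium channels, was higher in CKO. It had 117, 129 and 116 CPM in CKO libraries, 83, 111 and 86.8 CPM in ONC libraries, and 73.1, 83.4 and 65.4 CPM in Ctrl libraries. The log2 fold change was 0.71 ± 0.15 (adjusted p = 0.0142) in CKO and 0.34 ± 0.15 (adjusted p = 0.107) in ONC, or 0.62 in ONC with column 5 alone. Rod marker sums were also higher in every crushed library than in Ctrl, and their part in this rise was not tested. Of the pacemaker genes, Hcn3 was called higher in ONC at 1.04 ± 0.32 (adjusted p = 0.0326), with 7.54, 7.45 and 6.71 CPM in ONC libraries and 3.69, 2.38 and 4.39 CPM in Ctrl libraries, and shares 17.1% of its exon bases with Pklr on the opposite strand. Hcn2 and Hcn4 were not called.

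**Figure D4:**
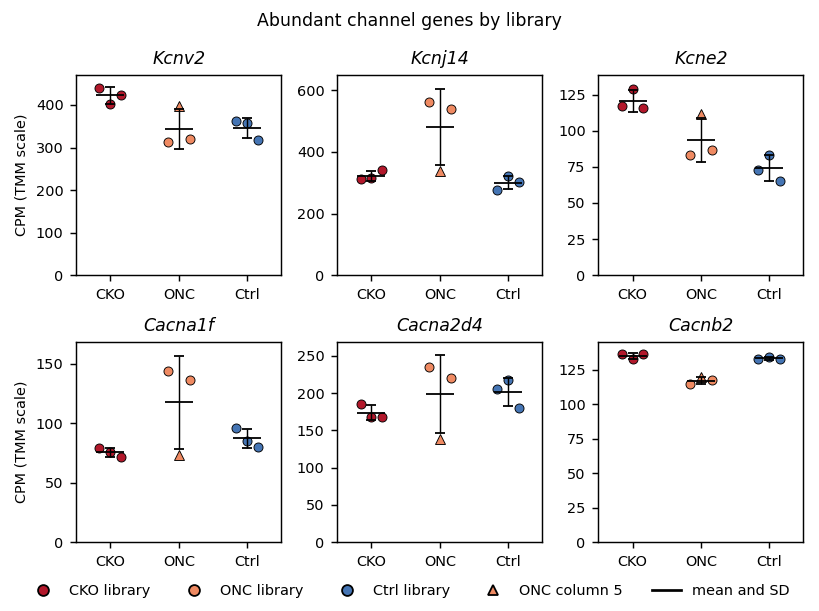
CPM on the TMM scale of 6 of the 8 channel genes with the highest mean level, in each library, with CKO, ONC and Ctrl from left to right. Points are libraries, the triangle is ONC column 5, and bars give the mean and SD of 3 libraries. In the panels of Kcnj14, Cacna1f and Cacna2d4, ONC columns 3 and 6 stand above column 5, and in that of Kcne2 the CKO libraries stand above Ctrl.

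Among calcium channels outside the photoreceptor set, some pores and partners of neuronal channels fell. Of 10 alpha1 genes, 3 were called lower in ONC and 2 in CKO, against 12.8% and 4.58% of all genes. Cacna1b, the N-type channel gene of transmitter release, had 1.93, 2.97 and 2.03 CPM in CKO libraries, 3.42, 4.1 and 3.42 CPM in ONC libraries, and 8.03, 7.7 and 7.95 CPM in Ctrl libraries. Each crushed library was at or under 4.10 CPM and each Ctrl library at or above 7.70 CPM, for -1.11 ± 0.29 (adjusted p = 0.0179) in ONC and -1.77 ± 0.3 (adjusted p = 0.00579) in CKO. The P/Q-type gene Cacna1a had 3.03, 5.15 and 4.34 CPM in CKO libraries, 5.26, 1.97 and 4.33 CPM in ONC libraries, and 6.74, 6.44 and 8.14 CPM in Ctrl libraries, with every crushed library below Ctrl, and did not pass the test at -0.88 ± 0.37 (adjusted p = 0.102) in ONC and -0.77 ± 0.37 (adjusted p = 0.236) in CKO. The L-type genes Cacna1c and Cacna1d were called lower in ONC alone, at -2.46 ± 0.67 (adjusted p = 0.0207) for Cacna1c and -1.08 ± 0.33 (adjusted p = 0.0324) for Cacna1d. Column 5 alone gave smaller falls of -1.83 and -0.89 in that order. Cacna1c rested on few reads, with 6, 9 and 4 counts in ONC libraries and 35, 29 and 31 counts in Ctrl libraries. Cacna1d had 6.93, 7.95 and 6.34 CPM in ONC libraries and 22.4, 8.54 and 13.8 CPM in Ctrl libraries. The T-type gene Cacna1g was called lower in CKO alone, at -1.15 ± 0.31 (adjusted p = 0.0385).

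Alpha2delta subunits bring calcium channels to the surface and to terminals. Cacna2d1, the gabapentin-binding subunit gene, had 16, 13.4 and 13.4 CPM in CKO libraries, 9.47, 5.72 and 8.5 CPM in ONC libraries, and 26.4, 30.1 and 19.8 CPM in Ctrl libraries. The 3 groups did not overlap, with ONC the lowest, for -1.68 ± 0.24 (adjusted p = 0.00171) in ONC, -2.12 (adjusted p = 0.00265) with column 5 alone, and -0.83 ± 0.24 (adjusted p = 0.0489) in CKO, where it held in 7 of 19 other analyses. Cacna2d2 was called lower in both, at -0.99 ± 0.34 (adjusted p = 0.0498) in ONC and -1.68 ± 0.35 (adjusted p = 0.0133) in CKO. Cacna2d3 had 78.7, 58.6 and 71.2 CPM in CKO libraries, 34.4, 57.4 and 32.3 CPM in ONC libraries, and 73.7, 84.3 and 71.5 CPM in Ctrl libraries, and was called lower in ONC alone at -0.89 ± 0.21 (adjusted p = 0.0123), with columns 3 and 6 the lowest libraries and -0.39 (adjusted p = 0.24) for column 5 alone.

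Cacnb4, a cytoplasmic beta subunit gene linked in the mouse to the lethargic mutant, had 10.4, 12.1 and 12.3 CPM in CKO libraries, 7.19, 15.8 and 7.84 CPM in ONC libraries, and 30.5, 29.4 and 23.5 CPM in Ctrl libraries. Column 5 lay between the other ONC libraries and Ctrl. The log2 fold change was -1.44 ± 0.28 (adjusted p = 0.00595) in ONC, -0.79 (adjusted p = 0.102) with column 5 alone, and -1.26 ± 0.28 (adjusted p = 0.0191) in CKO. Its share of the summed per-kilobase level of Cacnb1 to Cacnb4 was 11.1% ± 1.0 in CKO, 10.8% ± 4.5 in ONC and 22.0% ± 2.7 in Ctrl (SD, n = 3 each). Its exons share 16% of their bases with an opposite-strand gene. The 5 Cacng genes, whose products are mostly partners of AMPA receptors, gave no call; the highest per kilobase, Cacng3, had 7.2, 9.89 and 8.35 CPM in CKO libraries, 5.74, 14.6 and 7.17 CPM in ONC libraries, and 15.7, 13 and 10.9 CPM in Ctrl libraries.

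Calcium-activated and leak potassium channels changed in both directions. Kcnn1, a small-conductance calcium-activated channel gene, was the 1 member called higher in both contrasts, with 7.01, 7.59 and 4.91 CPM in CKO libraries, 6.58, 5.18 and 5.63 CPM in ONC libraries, and 2.91, 2.52 and 3.04 CPM in Ctrl libraries. Its log2 fold change was 1.03 ± 0.29 (adjusted p = 0.024) in ONC and 1.2 ± 0.29 (adjusted p = 0.0264) in CKO, and every crushed library lay above every Ctrl library. Its relative Kcnn2 was called lower in ONC at -1.45 ± 0.35 (adjusted p = 0.0131), with 2.37, 3.6 and 3.33 CPM in ONC libraries and 7.2, 6.65 and 11.5 CPM in Ctrl libraries. Kcnmb4, the neuronal beta subunit gene of the large-conductance channel, was called lower in ONC at -1.52 ± 0.41 (adjusted p = 0.0198). Its exons share 20.8% of their bases with Kcnmb4os2 and 10.7% with Kcnmb4os1, both on the opposite strand. The pore gene of that channel, Kcnma1, had 81, 85.6 and 77.5 CPM in CKO libraries, 75.5, 87.5 and 77 CPM in ONC libraries, and 114, 107 and 89.8 CPM in Ctrl libraries and was not called.

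Kcnk9, an acid-sensitive leak channel gene, had 0.275, 1.33 and 0.802 CPM in CKO libraries, 0.482, 0.0987 and 0.667 CPM in ONC libraries, and 3.46, 4.9 and 2.45 CPM in Ctrl libraries, which was 2 to 30 counts in each crushed library and 62 to 75 counts in each Ctrl library. It was called lower in ONC at -3.08 ± 0.75 (adjusted p = 0.0136), with -5.08 (adjusted p = 0.0301) for column 5 alone, and not in CKO at -2.15 ± 0.72 (adjusted p = 0.0884). Kcnk1, the leak channel gene with the highest level per kilobase, was not called. Kcnj5, a G protein-gated inward rectifier gene, was called lower in CKO at -3.25 ± 0.7 (adjusted p = 0.0163), with 0.138, 0.133 and 0.377 CPM in CKO libraries and 1.43, 2.59 and 2.29 CPM in Ctrl libraries. The CKO values of Kcnj5 were only 3, 3 and 8 counts, so the size of its fall rested on few reads. Kcnj10, the potassium-buffering channel gene of Müller glia, had 9.63, 5.24 and 5.19 CPM in CKO libraries, 4.03, 8.69 and 3.92 CPM in ONC libraries, and 1.57, 4.48 and 4.74 CPM in Ctrl libraries, with every CKO library above Ctrl and the ONC libraries overlapping it, and was not called, at 0.9 ± 0.47 (adjusted p = 0.28) in CKO. Kcnj13, the pigment epithelium counterpart, stayed under the minimum with 0 to 11 counts in every library.

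The remaining called members were Kcns2 and Kcnip2. Kcns2, a silent Kv gene, averaged under 1 CPM in both crushed groups, against 2.19 ± 0.706 CPM in Ctrl. It became a member through its Ctrl counts alone, so its lower levels in the crushed groups were favoured by the choice and no test is given. Kcnip2, called lower in ONC alone at -3.98 ± 1.26 (adjusted p = 0.0375), had 0, 0 and 4 counts in ONC libraries and 4, 13 and 48 counts in Ctrl libraries.

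Between the knockout and the wild type after crush, no channel gene was called. In CKO against ONC, 0 of 96 members were called higher, against 0.587% of all genes, and 0 lower, against 0.278%. At an unadjusted p under 0.05, 22 members passed (9 higher and 13 lower, 22.9%, against 27.2% of all genes), and DESeq2 called 13: 4 higher (4.17%, against 7.35% of genes) and 9 lower (9.38%, against 6.84%). All CKO libraries lay above all ONC libraries for 12 members (12.5%), against 13.6% of genes, and below them for 15 (15.6%), against 12.6%. Among the lowest adjusted p were those of Cacna2d1, at 0.85 ± 0.24 (adjusted p = 0.0715), and Cacna2d3, at 0.75 ± 0.21 (adjusted p = 0.0719). Without ONC column 5, 27 members were called, 11 higher (11.5%, against 18.6% of genes) and 16 lower (16.7%, against 18.1%), and with column 5 as the only ONC library none was.

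Partner genes outside the symbol rule gave a mixed count. Each count below stands against 13% higher and 12.8% lower of all genes in ONC, and 4.32% higher and 4.58% lower in CKO, and with lists this short several lie near those shares. Of 19 axon initial segment and node scaffold genes, 1 was called higher and 7 lower in ONC, and 0 and 3 in CKO, each against Ctrl, and with column 5 alone 0 were called in ONC. Adam22, a Kv1-associated membrane protein gene, had means of 9.12 ± 1.45 CPM in CKO, 7.26 ± 0.952 CPM in ONC, and 18.3 ± 3.03 CPM in Ctrl (SD, n = 3 each), with -1.34 ± 0.23 (adjusted p = 0.00325) in ONC and -1.01 ± 0.23 (adjusted p = 0.0189) in CKO. Dlg2, a scaffold gene, was called lower in ONC at -0.71 ± 0.16 (adjusted p = 0.00861), and Cntnap2, which places Kv1 channels beside nodes, in both contrasts, at -0.78 ± 0.19 (adjusted p = 0.0123) in ONC and -0.85 ± 0.19 (adjusted p = 0.0178) in CKO. Nfasc, the adhesion molecule gene of initial segments and nodes, was the 1 called higher, at 0.92 ± 0.21 (adjusted p = 0.00915) in ONC and 0.44 (adjusted p = 0.238) with column 5 alone. Of 31 tested channel partners, 2 were higher and 10 lower in ONC, and 1 higher and 6 lower in CKO, with 6 called in ONC for column 5 alone. Fgf12, a fibroblast growth factor homologue that binds sodium channel tails, had 13.8, 12.4 and 10.3 CPM in CKO libraries, 11.3, 12.6 and 11.2 CPM in ONC libraries, and 33, 31.2 and 35.9 CPM in Ctrl libraries, for -1.51 ± 0.18 (adjusted p = 0.0011) in ONC and -1.46 ± 0.18 (adjusted p = 0.00133) in CKO. In CKO against ONC, 2 partners were called, both higher: Fgf13, a relative of Fgf12, at 0.89 ± 0.18 (adjusted p = 0.0492), and Gem, a small GTPase gene whose product inhibits calcium channels, at 1.09 ± 0.22 (adjusted p = 0.0479). With column 5 as the only ONC library neither passed, at 0.87 (adjusted p = 0.31) and 0.72 (adjusted p = 0.387). Cabp4, the calcium-binding partner of the Cacna1f channel in photoreceptors, was higher, at 0.89 ± 0.12 (adjusted p = 0.00135) in ONC and 0.66 ± 0.12 (adjusted p = 0.00708) in CKO.

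Of 11 sodium-potassium pump genes tested, 4 were called higher and 1 lower in ONC, and 1 each way in CKO. Atp1b1 was called lower in both contrasts, at -1.22 ± 0.28 (adjusted p = 0.0111) in ONC, -0.55 (adjusted p = 0.166) with column 5 alone, and -1.6 ± 0.29 (adjusted p = 0.00713) in CKO. Atp1b2 was higher in both, at 0.65 ± 0.13 (adjusted p = 0.00611) in ONC and 0.58 ± 0.13 (adjusted p = 0.0191) in CKO. Of 26 genes for calcium stores and extrusion, 3 were called higher and 4 lower in ONC, which is near the shares of all genes, and 0 and 3 in CKO. Ryr2, a calcium release channel gene, had 10.3, 16.4 and 14.6 CPM in CKO libraries, 19.99, 10.9 and 17.8 CPM in ONC libraries, and 38, 36 and 33 CPM in Ctrl libraries, with no crushed library in the Ctrl range, for -1.14 ± 0.24 (adjusted p = 0.00797) in ONC and -1.37 ± 0.24 (adjusted p = 0.00704) in CKO. Slc8a1, a sodium-calcium exchanger gene, was lower in both, at -1.05 ± 0.23 (adjusted p = 0.00901) in ONC, -0.56 (adjusted p = 0.173) with column 5 alone, and -1.0 ± 0.23 (adjusted p = 0.0217) in CKO.

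Members were also counted by the cell they are best known from. Of 20 tested genes of axonal spiking, 9 were called lower and 2 (Kcnab2 among them) higher in ONC, and 7 lower and 0 higher in CKO, with a median log2 fold change of -0.89 in ONC and -1.27 in CKO. Of 7 genes of photoreceptor channels, 0 were called lower and 1 higher in ONC, and 0 lower and 2 higher in CKO, with a median of 0.26 in ONC and 0.02 in CKO. Of all genes, 12.8% were called lower and 13% higher in ONC, and 4.58% lower and 4.32% higher in CKO, so 2 of 20 and 1 of 7 higher in ONC are near the background. All genes tested had medians of -0.04 in ONC and -0.01 in CKO. The lists overlap. They were drawn up with results of these libraries known and carry no test.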

How the data were processed

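RNA of 9 sorted-cell libraries was amplified with Discover-sc WTA Kit V2 and made into libraries with TruePrep DNA Library Prep Kit V2, per the labels' protocols. Strand is claimed in the labels, yet tagmentation kits like this one leave it unmarked. Trimmomatic 0.36 and the builds GRCm38 and mm10 were used, per the submitters' processing notes. Aligner, counter and annotation: not given in the sources used here. The deposited table held an expected count per gene and library, not normalized, per the file headers. Its other 9 value columns, FPKM, were not used, because the ONC ones match no single sample and counts sufficed. CKO and Ctrl columns were matched to samples by name, ONC columns to the group only.

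After rounding of the deposited expected counts to integers, edgeR 4.0.16 was run in R 4.3.3 (filterByExpr, TMM scaling, 1 quasi-likelihood model of all 9 libraries, Benjamini-Hochberg adjustment over 15841 genes). Adjusted p-values come from it except where another tool stands beside them. Group values are mean ± SD of 3 libraries. Symbols, coordinates and exon lengths came from GENCODE M21 (GRCm38), and 21956 table entries matched. The fit was tested on simulated data. Alternatives were DESeq2 1.42.0, other scalings and filters, a GC content and length correction, a replicate block, and libraries left out or summed. The use of column 5 alone was chosen after seeing the data. Named genes were, per contrast, up to 12 called members with non-overlapping libraries by adjusted p, the 4 largest called rises and falls, each family's highest gene per kilobase, and a short list of well-known genes; other called members were added after their values were seen. Some genes are not reported here. The members and lists were chosen with earlier results of these data known. PCR copies were not marked, so counting limits cover counting error only.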

Additional observations from a re-analysis of the deposited data

How the results depend on the processing

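In ONC against Ctrl, 35 channel genes were called. The count was 10 with ONC column 5 alone, 12 with columns 3 and 6 summed, and 11 to 48 when each library was left out in turn, lowest without column 3 and highest without column 5. The median log2 fold change, -0.72, ran from -0.72 to -0.53 over the libraries left out. In CKO against Ctrl, 21 were called, and 6 to 31 with a library left out, lowest without CKO replicate 1. The median, -0.67, was -0.74 with library totals only and -0.76 to -0.64 with a library left out. In CKO against ONC, 0 were called, but 13 by DESeq2, 1 with library totals only, 1 with the stricter filter, 2 without filter, and 0 to 27 with a library left out, 27 being without column 5. The median there, -0.05, became 0.03 for column 5 alone and 0.02 after GC content and length correction. No call reversed. The 56 called results of single genes were 35 in ONC and 21 in CKO, each against Ctrl. Of these, 56 held by DESeq2, 56 without column 5 and 29 with columns 3 and 6 summed. After GC content and length correction 45 held, and without 1 Ctrl library 26 to 30. ONC libraries are not part of the CKO contrast, so these pooled counts can understate how far changes to ONC libraries moved the ONC calls. The causes were not tested. Same-numbered CKO and Ctrl libraries did not deviate together (r = 0.00208, 0.0149 and 0.00828), so their numbers were not taken to pair them, and a fit with the replicate number as a block, on those groups only, called 28 genes (4 higher and 24 lower), with a median of -0.63, against 30 without the block on the same libraries. No paired analysis was possible for contrasts with ONC because its columns, numbered 3, 5 and 6, share fewer than 2 numbers with the other groups.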
